A study of Mus musculus with 8 samples.

Results

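The 32 genes described here encode the parts of a red blood cell and the enzymes that make its heme, and they were measured by RNA sequencing of whole inner ear from mice at postnatal day 14. They were picked by gene symbol from the 47517 symbols of the count files, and all 32 were found. By role they comprise 4 globins, 7 enzymes of heme synthesis, 5 proteins of the membrane skeleton and its anchors, 4 blood group and surface proteins, 6 erythroid transcription factors and nuclear proteins, and 6 receptors, iron carriers and other late erythroid genes. The study compared 4 libraries from wild-type mice with 4 from littermates heterozygous for a frameshift in the gene for thyroid hormone receptor α1 (TRα1), a nuclear receptor that switches target genes according to the hormone. Mice of both genotypes were untreated, and the sources used here do not give their strain, sex or number per library. The tissue is inner ear by the sample labels and cochlea by the series title, and neither says whether surrounding bone was removed.

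Red cells arise in the marrow from precursors that divide several times while they fill with haemoglobin, then lose their nucleus. The transcription factors Gata1, Tal1 and Klf1 switch on the globin genes, the heme pathway and the proteins that brace the cell membrane, and erythropoietin keeps the precursors alive. Heme is built from glycine and succinyl-CoA by a chain of enzymes that starts and ends in the mitochondrion, and most of its erythroid output goes into haemoglobin. Circulating reticulocytes still carry globin RNA, whereas within the red cell line RNA for the nuclear factors belongs to nucleated precursors.

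Many erythroid promoters carry the motif that GATA factors read, and the sites of 11 members are shown to make that shared feature visible. The RefSeq promoter table of GRCm38.p6 held 27 of the 32 members. For each gene only the first RefSeq start listed was used. In the 250 bases before it, AGATAA or TGATAA stood on either strand in 16 of those 27 members (59.3%). The share over 27025 promoters of the table, taken in the same way, was 16.99%. Each line below gives 30 bases, read on the strand that spells the motif, with the motif in capitals.
Hba-a1, chr11:32283477-32283506, motif 183 bases before the RefSeq start: tgtccgggcaacTGATAAggattccctgca
Hba-a2, chr11:32296294-32296323, motif 186 bases before the RefSeq start: tgtccgggcaacTGATAAggattccctgca
Hbb-bs, chr7:103828121-103828150, motif 210 bases before the RefSeq start: tgttctctgcacAGATAAggacaaacatta
Alas2, chrX:150547319-150547348, motif 86 bases before the RefSeq start: ggcctctgctaaAGATAAaaagcaaagtag
Cpox, chr16:58670110-58670139, motif 86 bases before the RefSeq start: aggtgcttggacTGATAAgataggcgcttt
Rhag, chr17:40811106-40811135, motif 31 bases before the RefSeq start: gctgtatagtgtTGATAAgagcagaggact
Rhd, chr4:134864481-134864510, motif 43 bases before the RefSeq start: cccggcagcctgAGATAAgacctttggcgg
Klf1, chr8:84901890-84901919, motif 80 bases before the RefSeq start: ggctgtcttcccTGATAAgacccaggcaaa
Gfi1b, chr2:28622085-28622114, motif 120 bases before the RefSeq start: tctgtgaagtttTGATAAgcaaatgtggct
Epor, chr9:21963613-21963642, motif 54 bases before the RefSeq start: caggctggggacAGATAAgctacagccacc
Trim10, chr17:36869399-36869428, motif 163 bases before the RefSeq start: gtgtggggactcAGATAAggctcttgagct

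The sites of both α-globin copies are the same 30 letters. GENCODE M21, used for the gene coordinates given later, places some starts differently, and 13 of the 27 windows hold part of an exon of their own gene in it. Measured to its outermost start, the motif lies 22 bases before Hba-a1, 42 before Hbb-bs, 44 before Alas2, 26 before Klf1 and 8 before Rhag, and 124 and 170 before Epor and Cpox. None of the 11 motifs shown lies in a GENCODE exon of its gene. Among the counted members not shown, all 6 bases of the Hemgn motif and 1 base of a Kel motif lie in such an exon. The motif reads along the gene strand in Hba-a1, Hba-a2, Hbb-bs, Rhd and Gfi1b and on the opposite strand in the other 6 genes shown. A match is only a run of letters in this window and is not evidence of binding.

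The promoter of Epor, the erythropoietin receptor, is printed whole because it holds the GATA motif together with the C-rich motif CCNCNCCC that Klf1 and related factors read. Its 250 bases (chr9:21963577-21963826, minus strand, no GENCODE exon in the window) run 5′ to 3′ along the gene, with the GATA motif (here on the opposite strand, read as its complement) and the C-rich stretches in capitals.
Epor: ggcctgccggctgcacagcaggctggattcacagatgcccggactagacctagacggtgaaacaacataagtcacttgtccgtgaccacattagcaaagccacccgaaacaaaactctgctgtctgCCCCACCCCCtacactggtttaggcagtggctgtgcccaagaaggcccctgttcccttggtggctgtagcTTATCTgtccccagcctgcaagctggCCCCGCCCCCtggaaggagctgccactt

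CCNCNCCC, searched on both strands, stood in 14 of 27 member promoters (51.9%) and in 45.6% of all promoters of the table. Both motifs together were in 5 members (18.5%) and in 4.54% of all. TGAGTCA, the core that Nfe2 reads as part of a dimer, was in 2 members (7.41%) and in 4.43% of all.

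Library totals ranged from 18930841 to 23064578 counts, so that 3 counts corresponded to 0.130 to 0.158 CPM (counts scaled to the normalized size of the library). This limit covers counting error only, whereas the 95% intervals below come from the fit and include the spread between libraries. All 32 members passed the filter on low counts, and the lowest count of any member in any library was 31, for Gfi1b. Samples are named by genotype and replicate number. The sample titles carry 1 number for replicates 1 and 4 and 2 numbers for replicates 2 and 3 of either genotype. The meaning of these numbers is unknown, and values are therefore also given by title form. Nothing in the labels says which samples came from separate animals, so the p-values reflect only how far these libraries spread, in part perhaps for technical reasons. Markers of the labelled tissue were present throughout, with all 20 genes of the inner ear list tested and a summed level of 4004 to 6120 CPM per library.

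All 32 members had a lower mean in mutant than in wild-type libraries, and none passed the test. The log2 fold changes, mutant minus wild-type, ran from -1.26 for Trim10 to -0.32 for Ppox with a median of -0.93. Over all 21392 genes tested, the median was -0.0061, and 51.7% of genes had a negative value. With edgeR's quasi-likelihood test the adjusted p of the members lay between 0.924 and 0.985, so 0 of 32 were called, against 9 genes (0.0421%) over the whole table. An unadjusted p under 0.05 was found for 5 members (Uros, Urod, Gata1, Epor and Tspo2), against 3.09% of all genes tested in the same direction. DESeq2 called 0 of 32 as well, against 0.423% of the genes to which it gave an adjusted p. It left 17 members at an unadjusted p under 0.05, a count with no share of all genes computed beside it. In CPM the genotypes overlapped for every member, whereas 1.41% of all genes tested lay wholly lower in mutant libraries.

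**Figure D1:**
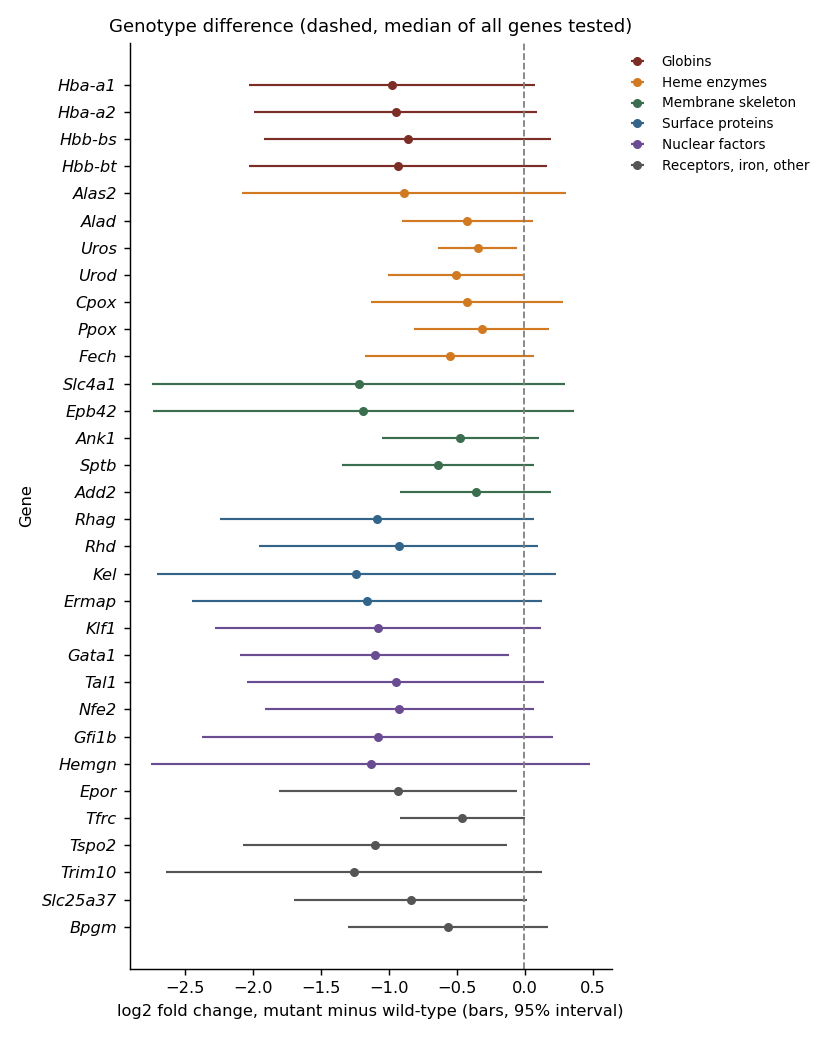
Log2 fold change of each member, mutant minus wild-type (n = 4 and 4 libraries), with bars for the 95% interval, coloured by role, and a dashed line at the median of all genes tested. Every point lies left of the line, and the intervals of 27 of the 32 genes reach 0 or beyond.

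The highest and lowest libraries were the same for most members. Wild-type replicate 2 held the highest level for 27 members and wild-type replicate 4 for the other 5. Mutant replicate 3 was lowest for 26 members, mutant replicate 4 for 5 and mutant replicate 2 for 1. On average over the members, log2 CPM stood 1.11 above the gene's mean in wild-type replicate 2 and 0.74 above it in wild-type replicate 4. It stood 0.26 above in wild-type replicate 1 and 0.44 below (-0.44) in wild-type replicate 3. In mutant replicates 1 to 4 it stood at 0.22, -0.041, -1.12 and -0.72. Wild-type replicate 3 thus lay below both mutant replicates 1 and 2, and the genotypes were interleaved.

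**Figure D2:**
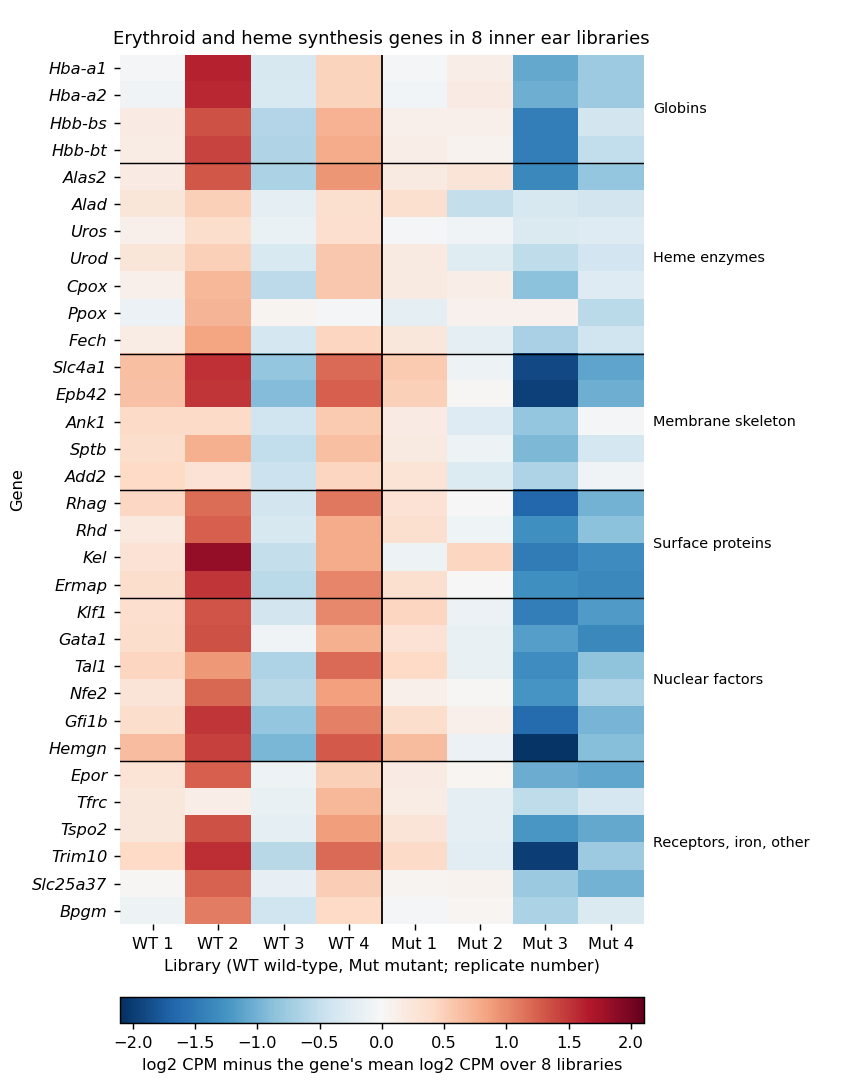
Log2 CPM of each member (rows, by role) in each library (columns) minus the gene's mean over the 8 libraries, with red above and blue below that mean. Wild-type replicate 2 is the reddest column for 27 members and mutant replicate 3 the bluest for 26.

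No member had an unadjusted p under 0.05 when replicate 2 or 4 of the wild-type or replicate 3 or 4 of the mutant libraries was left out, and 30 members reached it without wild-type replicate 3. The share of all genes at that cut was not computed for these fits. Without wild-type replicate 2 the median log2 fold change was -0.54, and 13 members shrank by over 1.5 times. Within libraries of 1 title number (2 against 2) all 32 differences in mean log2 CPM were negative with a median of -0.75, and within those of 2 numbers all 32 were negative with a median of -1.04. In bulk tissue, fewer cells of a type and less RNA per cell cannot be told apart.

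The 4 adult globins, the α and β chains of haemoglobin, together took 1.71, 4.87, 1.29 and 2.48% of all counts in wild-type replicates 1 to 4. Their share was 1.69, 1.90, 0.781 and 1.04% in mutant replicates 1 to 4. Only wild-type replicates 2 and 4 lay above every mutant library, and wild-type replicate 3 lay below mutant replicates 1 and 2.

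Hba-a1, an α-globin gene (chr11:32283511-32284465, plus strand), reached 6481, 20099, 5198 and 9098 CPM in the wild-type libraries, in replicate order. It reached 6466, 7284, 3139 and 3895 CPM in mutant replicates 1 to 4. The first replicates of both genotypes were almost level, and the wild-type mean was carried by replicate 2. Means were 10219 ± 6783 and 5196 ± 1991 CPM (SD, n = 4 each), with a log2 fold change of -0.98 (SE 0.46, 95% interval -2.03 to 0.075) that did not pass (edgeR adjusted p = 0.924). Hba-a2, the second α-globin copy (chr11:32296489-32297298, plus strand), had means of 7748 ± 5120.2 and 4006 ± 1523 CPM and a log2 fold change of -0.95 (SE 0.46).

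Hbb-bs, the more abundant β-globin gene (chr7:103826534-103828096, minus strand), stood at 4005, 8950.2, 2308 and 5911 CPM in the wild-type libraries. Its mutant libraries held 3807, 3825, 1304 and 2708 CPM. The highest mutant library was above the lowest wild-type library, and the log2 fold change was -0.86 (SE 0.46, edgeR adjusted p = 0.929). Hbb-bt, its neighbour (chr7:103812524-103813996, minus strand), had means of 2816 ± 1594 and 1478 ± 630.0 CPM and a log2 fold change of -0.93 (SE 0.48).

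Copies within a pair share sequence, so reads can be split or lost between them. Of all 50-base windows of the Hba-a1 transcripts 67.5% also occur in Hba-a2, and 86.9% in the other direction. For Hbb-bs and Hbb-bt the shares were 57.5 and 58.3%, and no window was shared between α and β genes. The ratio of counts was steady within each pair, at 1.26 to 1.36 for Hba-a1 over Hba-a2 and 1.83 to 2.11 for Hbb-bs over Hbb-bt in the 8 libraries. The 4 embryonic globin genes of the files, used before birth, summed to 0.159 to 4.04 CPM, and none passed the filter on low counts.

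The ratio of α-globin to β-globin counts did vary, and it followed the title form. It was 1.86 and 1.78 in wild-type replicates 1 and 4 and 1.94 and 1.72 in mutant replicates 1 and 4. In wild-type replicates 2 and 3 it was 2.55 and 2.64, and in mutant replicates 2 and 3 it was 2.26 and 2.84. Libraries with 1 title number (1.72 to 1.94) and with 2 (2.26 to 2.84) did not overlap, while the genotype means were 2.21 ± 0.453 and 2.19 ± 0.487 (SD, n = 4 each). What the title form stands for, and its part in this ratio, was not tested.

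**Figure D3:**
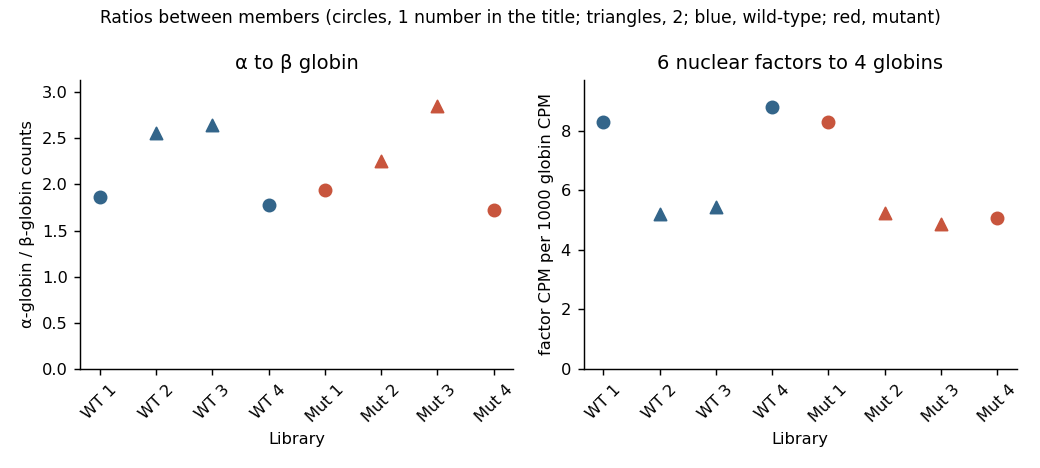
Left, ratio of α-globin to β-globin counts in each library; right, summed CPM of 6 erythroid nuclear factors per 1000 CPM of the 4 globins, with circles for 1 number in the sample title and triangles for 2, blue for wild-type and red for mutant. The α to β ratio is 1.72 to 1.94 for circles and 2.26 to 2.84 for triangles.

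Among the 7 heme synthesis enzymes, the median log2 fold change was -0.42, nearer to 0 than for the globins (median -0.94). None was called, and Uros and Urod had an unadjusted p under 0.05. Levels spread least between libraries for Uros, Alad and Urod.

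Alas2, the erythroid form of the aminolevulinate synthase that starts the pathway (chrX:150547375-150570638, plus strand), measured 146, 319, 81.5 and 246 CPM in wild-type libraries. The mutant libraries held 147, 156, 51.0 and 73.8 CPM. It moved between libraries as the globins did, from 6.404 to 9.78 CPM per 1000 CPM of globin. The log2 fold change was -0.89 (SE 0.51, 95% interval -2.08 to 0.30), which did not pass (edgeR adjusted p = 0.952). Alas1, the form used in all tissues, lay between 33.8 and 42.8 CPM in every library, with 0.060 (SE 0.099) as its log2 fold change. The ratio of Alas2 to Alas1 therefore ran from 1.496 in mutant replicate 3 to 9.27 in wild-type replicate 2. Exons of Alas2 overlap Apex2 and Mir3620 on the opposite strand over 15.5% of their length, and it is unknown whether counting used the strand.

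Uros closes the linear tetrapyrrole into a ring (chr7:133686243-133710072, minus strand). Its wild-type libraries held 32.4, 39.1, 27.4 and 38.7 CPM and its mutant libraries 29.8, 28.7, 24.5 and 25.1 CPM. It varied least of all members, 1.59-fold from the lowest to the highest library, and the lowest wild-type library lay below the 2 highest mutant libraries. The log2 fold change was -0.35 (SE 0.13, 95% interval -0.64 to -0.057, edgeR adjusted p = 0.924, unadjusted p = 0.0244).

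Urod, which trims the side chains of that ring (chr4:116989965-116994413, minus strand), had means of 59.6 ± 15.1 and 41.8 ± 9.65 CPM (SD, n = 4 each) and a log2 fold change of -0.51 (SE 0.22). Alad, which makes the first pyrrole, gave -0.42 (SE 0.21). Fech, which inserts the iron in the last step, had means of 113 ± 37.8 and 77.3 ± 21.3 CPM, with a log2 fold change of -0.55 (SE 0.27). The oxidases Cpox and Ppox, which act between Urod and Fech, gave -0.42 (SE 0.31) and -0.32 (SE 0.22), and 17.5% of the exon length of Ppox overlaps B4galt3 on the opposite strand.

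The membrane skeleton genes comprised a widely varying and a narrowly varying set. Slc4a1, the anion exchanger of the red cell membrane (chr11:102348824-102366203, minus strand), measured 255, 475, 93.5 and 376 CPM in wild-type libraries. The mutant libraries held 241, 152, 44.2 and 76.2 CPM. Wild-type replicate 3 lay below mutant replicates 1 and 2, and the range over all libraries was 10.7-fold. The means of 300.0 ± 165 and 129 ± 87.8 CPM (SD, n = 4 each) gave a log2 fold change of -1.22 (SE 0.65, 95% interval -2.74 to 0.29, edgeR adjusted p = 0.930). Epb42, which holds the exchanger to the skeleton, spread 10.99-fold with a log2 fold change of -1.19 (SE 0.66).

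Ank1, Sptb and Add2 encode ankyrin, β-spectrin and β-adducin of the lattice beneath the membrane. Ank1 (chr8:22974844-23150497, plus strand) stood at 162, 163, 92.0 and 179.6 CPM in wild-type and 138, 102, 70.1 and 119.9 CPM in mutant libraries. Its range was only 2.56-fold, and that of Sptb and Add2 was 3.25-fold and 2.16-fold. Their log2 fold changes were -0.47 (SE 0.25), -0.64 (SE 0.31) and -0.36 (SE 0.24), none of them called. Opposite-strand genes overlap 6.37% of the exon length of Ank1 and 3.51% of that of Add2.

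The blood group and surface proteins had the lowest median of the 6 roles, -1.12. Rhag and Rhd, partners in the Rh membrane complex, gave -1.09 (SE 0.50) and -0.93 (SE 0.44) on the log2 scale. Kel, the protease that carries the Kell antigens (chr6:41686330-41704339, minus strand), stood at 29.8, 86.3, 16.96 and 41.4 CPM in wild-type and 22.5, 33.0, 8.72 and 9.63 CPM in mutant libraries. Wild-type replicate 2 alone held over 2 times the level of any other library. The log2 fold change of Kel was -1.24 (SE 0.62), and that of Ermap, another blood group protein, was -1.16 (SE 0.55).

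The 6 nuclear proteins stood far below the globins in level, and their sum, like that of the globins, was highest in wild-type replicates 2 and 4 and lowest in mutant replicates 3 and 4. Gata1, a factor named after the GATA motif (chrX:7959260-7978071, minus strand), measured 15.3, 29.9, 11.2 and 19.9 CPM in wild-type libraries. In the mutant libraries it measured 14.7, 10.7, 5.33 and 4.66 CPM. Only mutant replicate 1 lay above the lowest wild-type library. Means of 19.1 ± 8.02 and 8.85 ± 4.75 CPM (SD, n = 4 each) gave a log2 fold change of -1.10 (SE 0.43, 95% interval -2.09 to -0.11, edgeR adjusted p = 0.924, unadjusted p = 0.0330).

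Klf1, the factor that activates adult β-globin (chr8:84901928-84905291, plus strand), stood at 24.0, 46.7, 14.3 and 37.9 CPM in wild-type and 25.7, 17.1, 6.88 and 8.26 CPM in mutant libraries, which gave -1.08 on the log2 scale (SE 0.52, edgeR adjusted p = 0.925). Here mutant replicate 1 lay above wild-type replicate 1. Tal1, which binds with Gata1, gave -0.95 (SE 0.47), and Nfe2, the factor of the globin control regions, gave -0.92 (SE 0.43). Gfi1b, a repressor needed for erythroid and platelet precursors, was the least abundant of the 6 at 7.79 ± 4.51 and 3.67 ± 2.09 CPM (SD, n = 4 each). Hemgn, a nuclear protein of blood precursors, varied 11.3-fold between libraries and gave -1.14 (SE 0.68).

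Set against haemoglobin, the summed level of the 6 nuclear proteins was 8.28, 5.21, 5.42 and 8.79 CPM per 1000 CPM of globin in wild-type replicates 1 to 4. It was 8.28, 5.24, 4.86 and 5.06 in mutant replicates 1 to 4. The 3 libraries near 8 to 9 all had 1 number in the title, and mutant replicate 4, of the same title form, stood with the lower libraries. The genotype means were 6.93 ± 1.87 and 5.86 ± 1.62 (SD, n = 4 each), closer together than 1 SD. For the heme enzymes the same ratio was lowest in wild-type replicate 2, at 16.0, and highest in mutant replicate 3, at 34.8. These libraries had the most and the least globin, 49123 and 7598 CPM, while their enzyme sums were 784 and 264 CPM. Globin is the divisor and varied more than the enzyme sum, so that order follows in part from the division.

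Among the remaining members, Epor (chr9:21958897-21963506, minus strand) stood at 8.03, 15.8, 6.14 and 9.38 CPM in wild-type and 7.42, 6.81, 3.20 and 3.12 CPM in mutant libraries. Mutant replicates 1 and 2 lay above wild-type replicate 3 only. Its log2 fold change was -0.93 (SE 0.38, 95% interval -1.81 to -0.058, edgeR adjusted p = 0.924, unadjusted p = 0.0394). Tspo2, an erythroid membrane protein of the translocator family, gave -1.10 (SE 0.43, unadjusted p = 0.0305), with means of 11.1 ± 5.06 and 5.14 ± 2.53 CPM (SD, n = 4 each). Trim10, a tripartite motif protein of late erythroid cells (chr17:36869574-36877833, plus strand), had the most negative log2 fold change of the members, -1.26 (SE 0.59), and the widest range, 11.5-fold.

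Iron enters precursors through the transferrin receptor Tfrc and reaches the mitochondrion through the carrier Slc25a37, also named mitoferrin. Tfrc (chr16:32608920-32632794, plus strand), which many dividing cells use, stood at 314, 292, 238 and 429 CPM in wild-type and 298, 234, 185 and 209 CPM in mutant libraries. It varied only 2.32-fold, and wild-type replicate 4, not 2, was highest. Its log2 fold change was -0.46 (SE 0.20, edgeR adjusted p = 0.924). Slc25a37 gave -0.84 (SE 0.37), and Bpgm, which makes the phosphate that lowers the oxygen affinity of haemoglobin, gave -0.56 (SE 0.32).

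**Figure D4:**
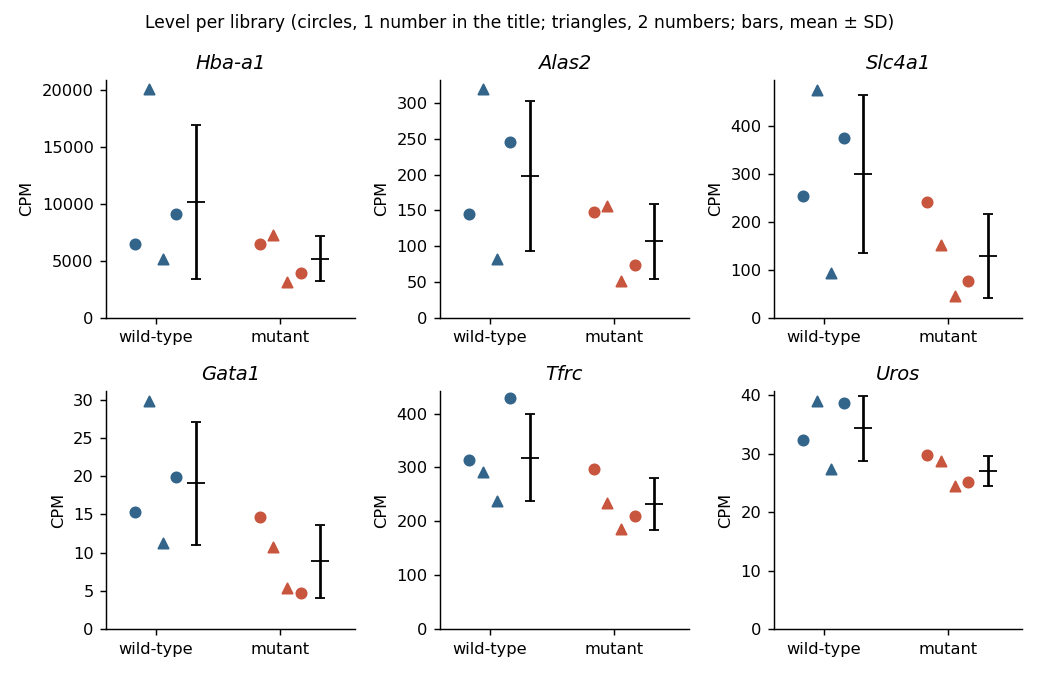
CPM in each library for Hba-a1, Alas2, Slc4a1, Gata1, Tfrc and Uros, with circles for 1 number and triangles for 2 numbers in the sample title, blue for wild-type, red for mutant and bars for mean ± SD (n = 4 each). Wild-type and mutant points overlap in every panel, and the spread is narrowest for Uros.

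Per kilobase of annotated exon, mean levels over the 8 libraries ran from 2.51 CPM for Tspo2 to 9492 CPM for Hba-a1. The globins lay between 3054 and 9492, and the next in order were Alas2 at 63.5, Tfrc at 44.4 and Slc4a1 at 43.8 CPM per kilobase. Tfrc and Slc4a1 are near neighbours in that order, and both varied by more between libraries than they differed from each other.

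The members varied far more between libraries than most genes. From the lowest to the highest library the median member changed 5.84-fold, against 1.55-fold for the 20047 tested genes with counts in every library. More than 5-fold was reached by 20 members and by 2.70% of those genes, while 9 members stayed under 3-fold. The biological coefficient of variation that edgeR estimated, the relative spread beyond counting noise, had a median of 0.436 over the members and 0.198 over all genes tested. It was above the median of all genes for 31 of the 32 members.

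The split between wide and narrow ranges crossed the roles. Globins ranged from 6.12-fold to 7.25-fold and nuclear proteins from 5.43-fold to 11.3-fold, whereas the heme enzymes other than Alas2 stayed at or under 2.92-fold. The 16 members with a GATA motif in the promoter window ranged from 2.92-fold to 11.5-fold (median 6.83) and the 11 matched members without one from 1.59-fold to 7.25-fold (median 2.43). Gata1, Tspo2 and Hbb-bt are among the members without these letters in the window. These promoter groups are a description, with no test, and rest on the first window listed for each gene. Alad, Uros and Tfrc, without the motif, and Tal1, with it, have 2 windows listed, and the second was not searched.

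Other erythroid genes, taken from a list outside the members, showed a like pattern in the same 8 libraries. That list was chosen with earlier results of these data known, so it is no independent support for the members. Of the 21 other erythroid genes tested, 20 had a negative log2 fold change with a median of -0.97, and 0 were called. For 8 of them the unadjusted edgeR p was under 0.05 on the lower side, against 3.09% of all genes tested. Epb41, which joins spectrin to actin, gave -0.45 (SE 0.18, edgeR adjusted p = 0.924), and Car2, a carbonic anhydrase of red cells, gave -0.56 (SE 0.29). Bnip3l, which clears mitochondria from reticulocytes and is used in other tissues, gave -0.014 (SE 0.11). Further genes of heme synthesis and turnover had a median of -0.15 over 16 genes, and 14 genes of iron uptake, storage and export a median of -0.061. Partners of the erythroid factors had a median of -0.22 over 16 genes.

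Markers of other blood lineages and of dividing cells moved with some of the same libraries, and their part in the result was not tested. Megakaryocyte and platelet markers (13 tested, 12 negative, median -1.06) summed to 112 to 315 CPM in wild-type and 104 to 168 CPM in mutant libraries. B cell precursor markers (14 tested, 13 negative, median -0.96) summed to 459.6 to 772 CPM and 287 to 605 CPM. Cell cycle genes were negative in 12 of 12 (median -0.86), with sums of 359 to 1058 CPM and 243 to 524 CPM. Of these 3 lists 7, 6 and 11 genes had an unadjusted edgeR p under 0.05 on the lower side, against 3.09% of all genes tested. None was called.

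Mutant replicate 1 separated these lists. It had the lowest B cell precursor sum of the 8 libraries, 287 CPM, yet its globins (17149 CPM) stood close to those of wild-type replicate 1 (17303 CPM). Neutrophil markers (20 tested, 19 negative, median -0.35, none with an unadjusted p under 0.05) summed to 639 to 2351 CPM in wild-type and 742 to 2088 CPM in mutant libraries. Their lowest library was wild-type replicate 3, and mutant replicate 2 was the second highest.

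The remaining lists had medians nearer to 0. The macrophage list gave -0.099 over 12 genes, the osteoblast and osteoclast list 0.048 over 14, the endothelial list 0.14 over 9 and the inner ear list -0.084 over 20. Progenitor markers had a median of -0.14 over 11 genes and markers of T and NK cells -0.23 over 6. An unadjusted edgeR p under 0.05 was found on the higher side for 2 endothelial genes and 1 osteoblast and osteoclast gene. On the lower side it was found for 1 gene each of the macrophage, osteoblast and osteoclast, inner ear and progenitor lists. Of all genes tested 3.09% reached it on that side. Wild-type replicate 2, with the most globin, had the lowest osteoblast and osteoclast sum (5567 CPM), and mutant replicate 3, with the least globin, had the highest (12628 CPM). The libraries between them did not keep that order. Wild-type replicate 4, with more globin (25155 CPM) than any library but wild-type replicate 2, had a sum of 10011 CPM, below mutant replicate 3 only. No gene of these lists was at 0 in all libraries, and none was called.

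**Figure D5:**
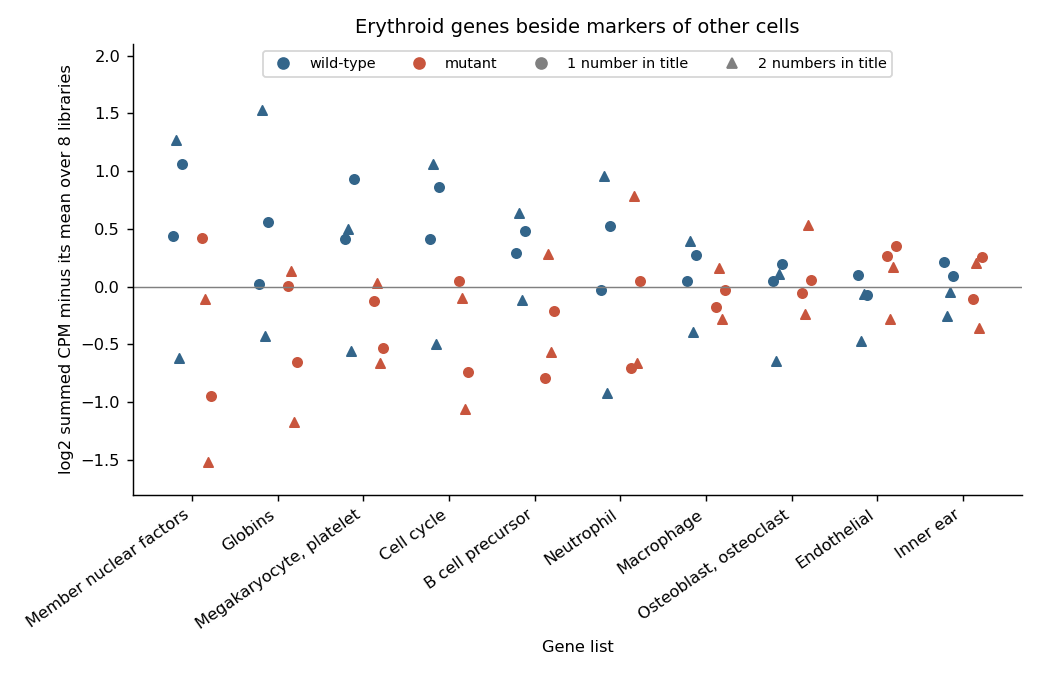
Log2 of the summed CPM of selected gene lists minus its mean over the 8 libraries (1 point per library, blue wild-type, red mutant, circles 1 number and triangles 2 numbers in the title). Among the lists drawn, the erythroid nuclear factors and the globins spread most, and the macrophage, endothelial and inner ear lists spread least.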

How the data were processed

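The 8 deposited files, 1 per library, list raw counts by gene symbol as whole numbers. RNA was extracted with TRIzol and a silica column, and libraries were made with a kit that includes molecular identifiers, per the labels' protocols. Per the submitters' processing notes, FastQC, STAR, HTSeq and the build mm10 were used (versions not given). Annotation, strandedness of the counting and use of the identifiers against duplicates are likewise not given in the sources. Any 2 libraries of a genotype differed by a chi-square per degree of freedom of at least 20.7, so none repeated the counts of another within counting noise. This cannot show that they came from separate animals, and pairs across genotypes were not compared.

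edgeR 4.0.16 (R 4.3.3; TMM, default filter, robust quasi-likelihood, genotype as the only term) was fitted to the whole table. Of 33027 symbols with a count, 21392 were tested, and a Benjamini-Hochberg adjusted p under 0.05 made a call. The SE is the log2 fold change divided by the square root of F. Coordinates and exon lengths come from GENCODE M21 (GRCm38, the assembly of mm10).

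The members and lists were chosen with earlier results of these data known. Named genes were all members, Alas1, and genes of the other lists by call or by level (up to 3 a list, 6 for other erythroid genes), and 1 result that the rule names is not reported here. The edgeR test was checked on simulated counts in which each gene was drawn independently. That check does not cover genes that move together between libraries, as most members did. Alternatives were DESeq2 1.42.0, limma-voom 3.58.1, RLE scaling, no filter, a minimum of 1 CPM in 4 or more libraries, haemoglobin left out, a block of neighbouring title numbers, title form as covariate, and each library in turn left out. An alternative chosen after seeing the data left out 1071 genes at 0 in some libraries and at least 10 in the others, alone and with the block.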

Additional observations from a re-analysis of the deposited data

Results flagged for a closer look

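Within the 118 groups of 4 libraries examined, 2 held a library far from the other 3 by Dixon's criterion, which chance alone meets in about 1 in 20 groups. Alad, the enzyme that makes the first pyrrole of heme, stood at 55.1 CPM in mutant replicate 1 against 30.9 to 34.4 CPM in the other mutant libraries. Tmod1, a protein that caps actin filaments in the red cell skeleton and elsewhere, stood at 171.3 CPM in wild-type replicate 1 against 187.9 to 191.1 CPM in the other wild-type libraries.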

How the results depend on the processing

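All members tested kept a negative log2 fold change under every alternative, 28 of them where haemoglobin was left out. Leaving out 1 library at a time moved their median between -1.16 (without wild-type replicate 3) and -0.54 (without wild-type replicate 2), and the number at an unadjusted p under 0.05 between 0 and 30. Over 1.5 times smaller were 13 members without wild-type replicate 2, 3 without mutant replicate 3 and 1 each without wild-type replicate 4 or mutant replicate 4, and 1 member was larger without mutant replicate 1. Over all genes tested, 9 were called in the main analysis, 113 with DESeq2, 16 with limma-voom, 5 with title form as covariate, and 6 to 14 with 1 library left out. With neighbouring title numbers as a replicate block, a pairing that is assumed (deviations from the genotype means correlated by 0.138, 0.273, 0.198 and -0.0358 in the 4 pairs, so not in every pair), 29 genes and 0 members were called, and 23 members had an unadjusted p under 0.05. Leaving out the genes of all-or-none counts, an alternative chosen after the data had been seen, called 13 genes and 0 members. There 15 members had an unadjusted p under 0.05. Combined with the block it called 317 of 20321 genes and 1 member, Ank1 (log2 fold change -0.46, edgeR adjusted p = 0.0367). All 32 members then had an unadjusted p under 0.05. For no alternative was the share of all genes at that cut computed. Within neighbouring numbers, 21, 32, 31 and 32 members were negative for replicates 1 to 4 (medians -0.036, -1.19, -0.71 and -1.52). Of the other lists 0 genes were called in the main analysis, 2 with DESeq2, 1 with the block and 19 with the block and all-or-none genes left out. Leaving out 1 library moved Bnip3l between -0.069 and 0.053 and Alas1 between -0.0069 and 0.11, so the sign of both depends on single libraries. The cause of these changes was not tested beyond what each alternative leaves out.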
